A study of Homo sapiens with 5 samples.

Results

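Glycolysis and the pentose phosphate pathway were examined through 37 listed genes for glucose uptake, glycolysis, lactate and pyruvate handling and the pentose phosphate branch. Of these, 33 were found by symbol in the deposited abundance table, which held 10504 genes with a unique symbol. SLC16A3, GPI, PFKFB4 and ENO3 were not analysed here. The cells were HEK293A, a subline of HEK293 (human embryonic kidney) selected for flat, adherent growth, kept in DMEM with 10% FBS, starved and then given FBS again. They carried a control siRNA (siCon, 2 libraries) or an siRNA against IRE1α (siIRE1a, 2 libraries). A further Ribo-seq library multiplexed all cultures. The starvation and the serum were common to both groups, and no group without serum was measured. IRE1α, encoded by ERN1, is a sensor of unfolded proteins in the endoplasmic reticulum.

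Glycolysis splits glucose into pyruvate with a net gain of ATP, and lactate dehydrogenase turns pyruvate into lactate to regenerate NAD+. The pentose phosphate pathway branches from glucose 6-phosphate and yields NADPH and ribose 5-phosphate for nucleotide synthesis. Proliferating cell lines run both at high rates, and many of the steps are served by isozymes encoded by separate genes.

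RNA-seq and ribosome profiling (Ribo-seq, the sequencing of mRNA fragments covered by ribosomes, called footprints) were each deposited as 1 value per group, so no replicate error stands behind an RNA or footprint value. The unit of these abundances is not stated. They were lower for genes of longer coding sequence (Spearman's rho −0.51 for siCon footprints), and levels of different genes are set side by side only as deposited, since division by length could not be checked. Of the 4 titled libraries, those of siCon had 28769136 and 31876615 clusters and those of siIRE1a 49112701 and 34172898. Both siIRE1a libraries were thus larger than both siCon libraries, and the number of reads behind a gene is unknown. The sample descriptions name RNA-seq for siCon and Ribo-seq for siIRE1a, while the deposited columns give both assays for both groups. Which libraries stand behind the RNA and footprint values of each group is therefore uncertain. Translational efficiency (TE) is the footprint value divided by the RNA value, and the authors' deposited table gives a log2 change in TE with an adjusted p for 8878 genes. All changes are siIRE1a relative to siCon. ERN1 itself went from 0.121 to 0.0736 in RNA (log2 −0.72) and from 0.402 to 0.275 in footprints (log2 −0.55). Its siCon values lay under the all-gene medians of 0.412 in RNA and 1.84 in footprints, so the fall rests on low levels. Of 6 genes fixed as markers of HEK293 cells, KRT8, KRT18, VIM and CDH2 were in the tables, and PAX2 and LHX1 were not. Of 9 markers of other cell types only COL1A1 was, with RNA values of 0.292 and 0.313.

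The contrast that runs through the results below was between transcripts rich and poor in G and C and, in RNA change, between LDHB and the rest. The first 60 coding bases of the 6 members whose TE passed the authors' test, and of LDHA as the paralog of LDHB, are shown for this reason. Capitals mark a G or C at the third position of a codon. The sequences are GENCODE release 29 reference transcripts (GRCh38), printed 5′ to 3′ from the start codon.
TKT: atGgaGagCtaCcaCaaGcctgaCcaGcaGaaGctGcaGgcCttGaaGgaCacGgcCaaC
GAPDH: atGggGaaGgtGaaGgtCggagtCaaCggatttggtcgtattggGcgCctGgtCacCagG
PKM: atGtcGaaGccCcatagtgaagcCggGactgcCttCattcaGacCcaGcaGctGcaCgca
ENO1: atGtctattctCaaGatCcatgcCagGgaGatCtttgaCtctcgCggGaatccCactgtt
RPE: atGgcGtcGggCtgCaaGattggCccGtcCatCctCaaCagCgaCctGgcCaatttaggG
LDHA: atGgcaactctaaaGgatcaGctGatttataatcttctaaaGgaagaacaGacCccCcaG
LDHB: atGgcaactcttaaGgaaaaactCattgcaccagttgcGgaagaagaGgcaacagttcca
In these stretches 19 of 20 codons of TKT end in G or C, 14 of GAPDH and of PKM, 12 of ENO1, 17 of RPE, 9 of LDHA and 5 of LDHB. Over the whole transcript, UTRs included, GC content was 58.1% for TKT, 58.8% for GAPDH, 58.6% for PKM, 58.9% for ENO1, 44.0% for LDHA, 46.5% for LDHB and 38.7% for RPE. RPE is thus rich in G and C at its coding start and poor over its whole length. The transcripts lie at chr3:53224707-53256031 (minus strand, TKT), chr12:6533927-6538371 (plus, GAPDH), chr15:72199029-72231386 (minus, PKM), chr1:8861000-8879250 (minus, ENO1), chr2:210002565-210021576 (plus, RPE), chr11:18394388-18408425 (plus, LDHA) and chr12:21635342-21657794 (minus, LDHB).

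Across the pathway RNA moved in both directions while footprints were mostly slightly lower. RNA was above 0 for 18 of 33 members (48.8% of all genes) and ranged from −0.99 for LDHB to 0.84 for ALDOC on the log2 scale, with a median of 0.095 against −0.011 for all genes. At least 1.2-fold higher in RNA were 8 of 33 members, GAPDH, ALDOA, ALDOC, PFKP, PFKFB3, PKM, PDK2 and TKT (20.7% of all genes), and at least 1.2-fold lower were LDHB and RPE (26.0%). At 1.5-fold, ALDOC was higher (3.86% of all genes) and LDHB and RPE were lower (6.7%). Footprints were below 0 for 27 of 33 members (67.9% of all genes), with a median of −0.16 against −0.082 for all genes, and 24 of 33 lay under the all-gene median. No member was at least 1.2-fold higher in footprints (6.32% of all genes), and LDHB, PFKL, PGD, PFKM and ENO2 were at least 1.2-fold lower (14.0%). No member was 1.5-fold apart in footprints, where 0.847% of all genes were higher and 0.904% lower. After centring on the all-gene median, 2 members were at least 1.2-fold higher in footprints (10.5% of all genes) and 2 at least 1.2-fold lower (6.45%). In bulk cultures, fewer cells with an RNA and less of it per cell cannot be told apart.

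**Figure D1:**
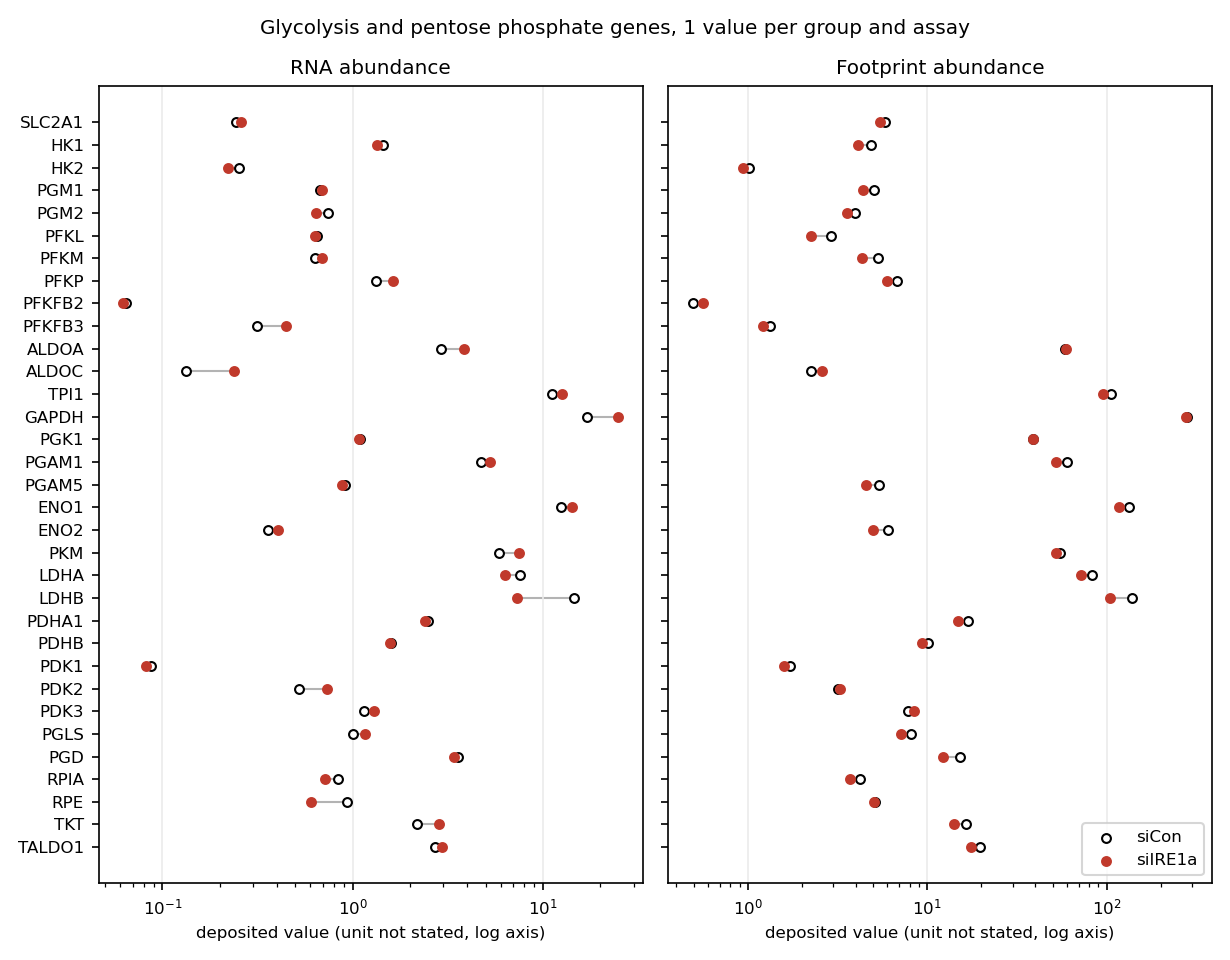
RNA abundance (left) and footprint abundance (right) of the 33 genes, each in its deposited unit on a log axis, with 1 open point for siCon and 1 red point for siIRE1a per gene and no error bars because each is a single value. The longest line in the RNA panel is that of LDHB, from 14.6 to 7.35, and in the footprint panel the points of most genes nearly coincide.

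In TE, the authors' deposited table called 4 of 32 tested members lower (4.62% of all genes tested) and 2 higher (5.9%) at an adjusted p under 0.05. TKT, GAPDH, PKM and ENO1 fell, and LDHB and RPE rose. The calls lay mostly in abundant genes: among the 13 members with a mean footprint value of at least 10, 4 were lower and 1 higher, against 12.9% and 9.39% of all tested genes of that abundance. Over all 33 members the authors' deposited table gave a log2 TE change below 0 for 25 (54.2% of all genes), with a median of −0.24 against −0.039. PFKFB2 had no adjusted p. Centred on the all-gene median, the TE changes gave 2 members higher (6.83% of all genes) and 3 lower (3.72%), ENO1 being lost.

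**Figure D2:**
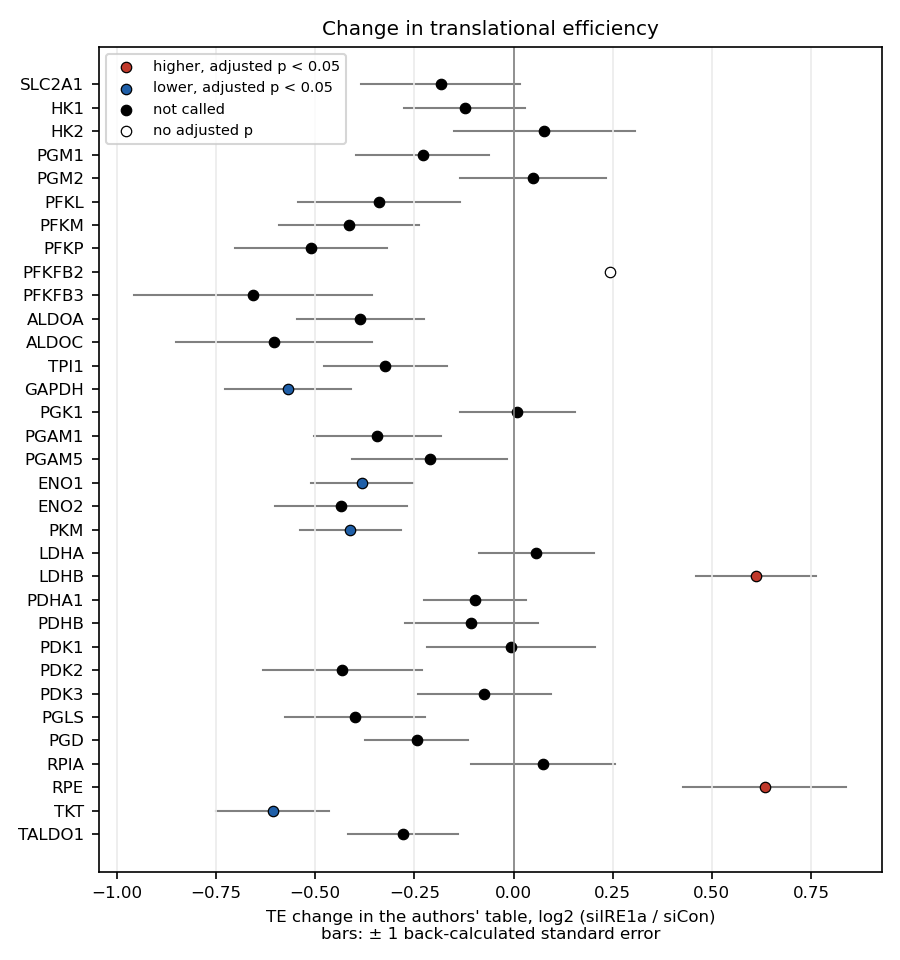
Log2 change in TE of each gene in the authors' deposited table (points, blue for lower and red for higher at an adjusted p under 0.05, black for not called, open for no adjusted p), with bars of 1 standard error back-calculated from the adjusted p or, where the p was 0.5 or more, borrowed from genes of like abundance. The 4 blue points lie between −0.61 and −0.38 and the 2 red points at 0.61 and 0.63.

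Lactate dehydrogenase gave the largest difference in RNA change between the isozymes compared here, though not in footprint or TE change, where PFKFB2 and PFKFB3 lay furthest apart. The enzyme is a tetramer of the subunits encoded by LDHA, which favours the reduction of pyruvate to lactate, and LDHB, which favours the reverse. LDHB RNA was 14.6 in siCon and 7.35 in siIRE1a cells, a 1.99-fold lower value, and 53 of 10504 genes had an RNA change at or under it. Its footprints were 138 and 104, which is 1.32-fold lower and the lowest footprint change of any member (log2 −0.41). The RNA value dropped further than the footprint value, and the TE of LDHB rose by 0.61 in the authors' deposited table (adjusted p = 0.00285, standard error 0.151, back-calculated from that p).

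LDHA moved the same way by less. Its RNA was 7.54 in siCon and 6.29 in siIRE1a cells (log2 −0.26), and its footprints were 83.1 and 71.7 (log2 −0.21). Its TE was not called, with a log2 change of 0.058 in the authors' deposited table (adjusted p = 0.805). The RNA changes of the pair were 0.73 apart on the log2 scale, with 1 value per group and no test of the difference. The coding sequences of the pair are of near equal length (999 and 1005 bases). In siCon cells the deposited LDHB RNA value was 1.94 times that of LDHA, and in siIRE1a cells 1.17 times. In footprints the same ratio went from 1.66 to 1.46.

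Glucose enters through SLC2A1 (GLUT1), the basal glucose transporter, and is phosphorylated by hexokinases. SLC2A1 RNA was 0.243 and 0.259 and its footprints were 5.82 and 5.45, so both groups were close in both assays. HK1, the constitutive hexokinase, had RNA values of 1.44 and 1.34 and footprints of 4.88 and 4.10 (1.19-fold lower). HK2, the inducible hexokinase, was the second lowest member in siCon footprints, at 1.02 against 0.934 in siIRE1a cells, with RNA values of 0.254 and 0.222. HK1 footprints were thus 4.78 times those of HK2 in siCon and 4.38 times in siIRE1a cells. PGM1, which interconverts glucose 1-phosphate and glucose 6-phosphate, and PGM2, which acts on phosphopentoses, had footprints 1.15-fold and 1.11-fold lower. None of these 5 genes was called in TE, with adjusted p between 0.385 and 0.878 in the authors' deposited table.

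Phosphofructokinase, the committing step of glycolysis, had lower footprints for all 3 of its subunits (67.9% of all genes were below 0). Footprints of PFKL, the liver type, went from 2.90 to 2.25 (1.29-fold lower) with RNA of 0.648 and 0.631. Those of PFKM, the muscle type, went from 5.30 to 4.34 (1.22-fold lower) with RNA of 0.636 and 0.694. Those of PFKP, the platelet type, went from 6.78 to 5.94 (1.14-fold lower) with RNA of 1.33 and 1.64 (1.24-fold higher). No subunit was called in TE: the authors' deposited table gave −0.34 for PFKL (adjusted p = 0.277), −0.41 for PFKM (adjusted p = 0.111) and −0.51 for PFKP (adjusted p = 0.0647). The order of the 3 subunits in footprints was the same in both groups.

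The PFKFB genes encode bifunctional enzymes that make and remove fructose 2,6-bisphosphate, an activator of phosphofructokinase. PFKFB3 RNA went from 0.313 to 0.448 (1.43-fold higher) and its footprints from 1.33 to 1.22. Its TE change of −0.66 in the authors' deposited table was the lowest of any member and was not called (adjusted p = 0.138, standard error 0.299). PFKFB2 was the least abundant member, with RNA of 0.0642 and 0.0623 and footprints of 0.492 and 0.564.

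Both aldolases had higher RNA (48.8% of all genes were above 0). ALDOC, the brain type, had the largest RNA increase of the members, from 0.133 to 0.238 (1.79-fold), with footprints of 2.24 and 2.58 (1.16-fold higher). Its siCon RNA value ranked 31 among the 33 members, so the rise rests on low RNA levels with 1 value per group. ALDOA, the muscle type and by far the more abundant, went from 2.93 to 3.84 in RNA (1.31-fold) and had footprints of 58.7 and 59.2. The authors' deposited table gave TE changes of −0.60 for ALDOC (adjusted p = 0.0918) and −0.39 for ALDOA (adjusted p = 0.0967), neither of which passed. TPI1, which interconverts the triose phosphates made by aldolase, had RNA of 11.1 and 12.6 and footprints of 105 and 95.9.

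The lower steps of glycolysis held 3 of the 4 genes with lower TE. GAPDH, which oxidises glyceraldehyde 3-phosphate, had the highest footprint value of the members, 281 in siCon and 276 in siIRE1a cells. Its RNA was 17.1 and 24.8, a 1.45-fold higher value, and its TE fell by 0.57 in the authors' deposited table (adjusted p = 0.00977, standard error 0.159). ENO1, the ubiquitous enolase, had RNA of 12.5 and 14.3 and footprints of 134 and 118, with a TE change of −0.38 in the authors' deposited table (adjusted p = 0.0356, standard error 0.129). PKM, a pyruvate kinase gene whose splice forms are not separated here, had RNA of 5.88 and 7.47 and footprints of 54.6 and 52.0. Its TE change was −0.41 in the authors' deposited table (adjusted p = 0.0218, standard error 0.128). In GAPDH and PKM the RNA value moved by more than the footprint value, and in ENO1 they moved by near equal amounts in opposite directions (log2 0.20 and −0.19).

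The other genes of this stretch were not called. PGK1, the first ATP-forming enzyme of glycolysis, had RNA of 1.09 in both groups and footprints of 38.9 and 39.0, and had the highest TE of any member in siCon cells (35.8). PGAM1, the phosphoglycerate mutase, had RNA of 4.75 and 5.26 and footprints of 59.8 and 52.5. Its near-identical copy PGAM4 could share reads with it, and had RNA of 1.12 and 1.71, footprints of 33.8 and 29.4 and a TE change of −0.80 in the authors' deposited table (adjusted p = 9.68e-05). ENO2, the neuronal enolase, had footprints of 6.07 and 5.01 (1.21-fold lower) and a TE change of −0.43 in the authors' deposited table (adjusted p = 0.0695). PGAM5, a protein phosphatase of mitochondria in spite of its name, had RNA of 0.908 and 0.878 and footprints of 5.40 and 4.54. How the authors assigned reads from processed pseudogenes, which several of these genes have, is not given in the sources used here.

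Pyruvate enters mitochondrial oxidation through pyruvate dehydrogenase, whose E1 subunits are encoded by PDHA1 and PDHB and are switched off by the PDK kinases. PDHA1 had RNA of 2.48 and 2.39 and footprints of 16.8 and 14.9, and PDHB had RNA of 1.59 and 1.57 and footprints of 10.1 and 9.30. PDK2 RNA went from 0.525 to 0.730 (1.39-fold higher) with footprints of 3.18 and 3.26. PDK3 had RNA of 1.15 and 1.29 and a footprint change of 0.10 from 7.83 in siCon cells, and PDK1 had RNA of 0.0871 and 0.0823 and footprints of 1.71 and 1.58. The order PDK3, PDK2, PDK1 held in both assays and both groups, and none of these 5 genes was called in TE (adjusted p between 0.146 and 0.990 in the authors' deposited table).

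The pentose phosphate pathway held 1 TE call in each direction, at neighbouring steps of its non-oxidative part. TKT, the transketolase that moves carbon units between sugar phosphates, had RNA of 2.17 and 2.85 (1.31-fold higher) and footprints of 16.4 and 14.1 (1.16-fold lower). Its TE change was −0.61 in the authors' deposited table (adjusted p = 0.00164, standard error 0.143). RPE, the epimerase that supplies xylulose 5-phosphate to transketolase, had RNA of 0.934 and 0.603 (1.55-fold lower) and footprints of 5.11 and 5.08. Its TE change was 0.63 in the authors' deposited table (adjusted p = 0.0293, standard error 0.206). RPE has a near-identical copy, RPEL1, and read sharing between them was not tested. TKT was higher in RNA and lower in footprints, while RPE was lower in RNA only.

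The other pentose phosphate genes were not called. PGD, the second dehydrogenase of the oxidative branch, had RNA of 3.57 and 3.43 and footprints of 15.3 and 12.2 (1.25-fold lower). PGLS, the lactonase before it, had RNA of 0.999 and 1.16 and footprints of 8.12 and 7.10. RPIA, the isomerase that forms ribose 5-phosphate, had RNA of 0.838 and 0.714 and footprints of 4.19 and 3.73. TALDO1, the transaldolase, had RNA of 2.69 and 2.94 and footprints of 19.6 and 17.5. All 6 members of this branch had footprints below 0 on the log2 scale (67.9% of all genes), from −0.32 for PGD to −0.0095 for RPE. RPE lay above the all-gene median of −0.082. The TE changes of the 6 in the authors' deposited table ran from −0.61 to 0.63.

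**Figure D3:**
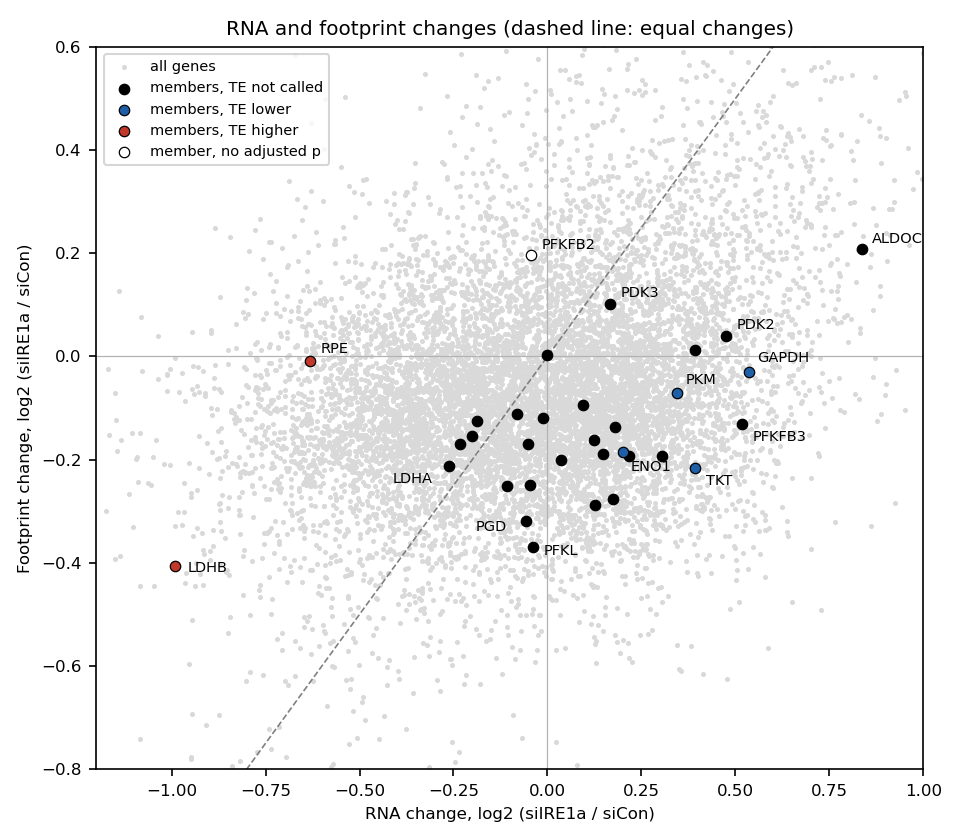
Footprint change against RNA change of the 33 genes, log2 of siIRE1a over siCon (blue for TE lower, red for TE higher, black for not called, open for no adjusted p), over all genes within the axis limits in grey. The dashed line marks equal changes; LDHB and RPE lie above it on the left, and GAPDH, PKM, TKT and ENO1 lie below it on the right.

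RNA and TE changes of the members ran with the base composition of their transcripts. Across the 33 genes, which share their libraries and are not replicates, Spearman's rho between transcript GC content and RNA change was 0.73 (Pearson's r = 0.61), and with the TE change in the authors' deposited table it was −0.79 (r = −0.76). Over all genes these rho were 0.63 and −0.67. Footprint change had a rho of −0.11 with GC content among the members and −0.042 over all genes. RNA is the divisor of TE, so the TE rho is not independent of the RNA rho. With GC content of the coding sequence alone, the members' rho was 0.51 for RNA. Members had a median transcript GC content of 54.2% against 47.9% for all genes, and 23 of 33 lay above the all-gene median. The part of base composition in the TE calls was not tested beyond the trend below.

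When genes were split into 5 groups of nearly equal size by transcript GC content, the group richest in GC held 9 members: PFKL, PFKP, ALDOA, GAPDH, ENO1, PKM, PDK2, PGLS and TKT. Their median RNA change was 0.34, against 0.22 for all 2038 genes of that group, and all 4 members with lower TE were among them. In that group the authors' deposited table called 165 of 1583 tested genes lower and 4 higher. The poorest group held PGM2, PDK1 and RPE, with a median RNA change of −0.20 against −0.37 for all its genes, and 355 of its 1806 tested genes were called higher and 0 lower.

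With a trend on transcript GC content taken out of the TE changes, and the remainder retested with the back-calculated standard errors over 8615 genes, LDHB was the 1 member called (0.61, adjusted p = 0.0101; 0.847% of genes were called higher and 0.464% lower). The other 5 were not, with GAPDH at −0.27 (adjusted p = 0.591), TKT at −0.32 (0.377), PKM at −0.12 (0.854), ENO1 at −0.083 (0.916) and RPE at 0.31 (0.656). With a trend on coding-sequence GC content in its place, LDHB was at 0.42 (adjusted p = 0.117) and RPE at 0.66 (adjusted p = 0.0489), with 1.98% of genes called higher and 0.847% lower. Each of these 2 calls depended on which composition was used. The RNA change of LDHB with the transcript trend removed was −0.94, where the standard deviation over all genes was 0.289, and 26 of 10189 genes were at or under it. LDHA was at −0.12 and ALDOC, the highest member, at 0.63 on the same scale. LDHB was thus low in RNA also against genes of like transcript GC content, and LDHA lay within 1 standard deviation of them. No coding-sequence trend was taken out of the RNA changes.

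**Figure D4:**
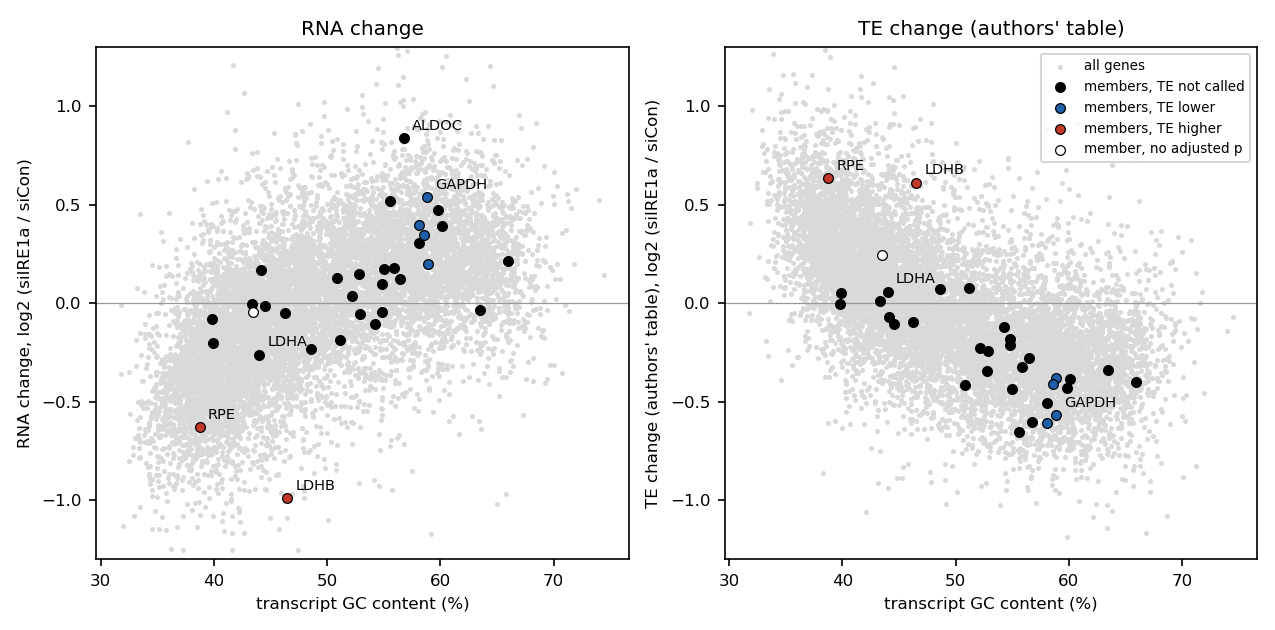
RNA change (left) and TE change in the authors' deposited table (right), log2 of siIRE1a over siCon, against transcript GC content in percent; grey points are all genes within the axis limits, and blue, red, black and open points are members as in the plot of TE change. LDHB, at 46.5% GC, lies at the lower edge of the genes of like GC content in RNA and towards their upper edge in TE, while RPE and the 4 blue points lie nearer their middle.

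Baseline TE was high for the pathway. In siCon cells 28 of 33 members were above the all-gene median of 4.70, with a median of 7.57 over the members. The highest were PGK1 at 35.8, SLC2A1 at 24.0, ALDOA at 20.1 and PDK1 at 19.6, and the lowest HK1 at 3.39, HK2 at 4.02 and PFKFB3 at 4.26. In siIRE1a cells the members' median was 6.35 against 4.62 for all genes, and HK1 and PFKFB3 were at 3.07 and 2.72. Genes of similar footprint level differed in TE: PGAM1 and ALDOA had footprints of 59.8 and 58.7 but TE values of 12.6 and 20.1. PGAM1 could share reads with PGAM4, as stated above. Over all genes, siCon footprints fell with coding length more than siCon RNA did (Spearman's rho −0.51 and −0.24), and TE was not corrected for length.

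Genes of neighbouring pathways were counted in the same TE calls, where 5.9% of all genes tested were higher and 4.62% lower. Of 13 tested genes among the other glycolysis and glucose entry genes, 1 rose in TE and 1 fell (PGAM4, above). The 1 that rose was SLC16A7, a monocarboxylate transporter, at 0.72 in the authors' deposited table (adjusted p = 0.0353), with RNA of 0.123 and 0.0774. Of 10 tested genes of pyruvate handling, 2 rose and 1 fell. DLD, the E3 subunit shared by the 2-oxoacid dehydrogenases, went from 1.22 to 0.705 in RNA and from 7.93 to 7.02 in footprints, and its TE rose by 0.65 in the authors' deposited table (adjusted p = 0.0031). MPC2, a subunit of the mitochondrial pyruvate carrier, had an RNA change of −1.05, to 0.242 in siIRE1a cells, and went from 9.62 to 7.06 in footprints, with a TE change of 0.60 in the authors' deposited table (adjusted p = 0.0412). PCK1, a phosphoenolpyruvate carboxykinase, had RNA of 0.467 and 0.475 and footprints of 6.93 and 4.99, with a TE change of −0.49 in the authors' deposited table (adjusted p = 0.0337). In the retest with the transcript GC trend removed, PGAM4 was called lower (−0.55, adjusted p = 0.0468). SLC16A7, DLD, MPC2 and PCK1 were not called in that retest (adjusted p between 0.358 and 0.914).

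In the tricarboxylic acid cycle list, 3 of 19 tested genes fell in TE (4.62% of all genes tested) and 0 rose (5.9%), and the authors' deposited table gave a median TE change of −0.22, against −0.24 for the members. Those that fell included IDH3B and IDH3G, subunits of the NAD-dependent isocitrate dehydrogenase, at −0.59 and −0.53 in the authors' deposited table (adjusted p = 0.00596 and 0.0300). Of 8 tested glycogen genes, PYGB, the brain glycogen phosphorylase, fell by 0.56 in the authors' deposited table (adjusted p = 0.0131). In the retest with the transcript GC trend removed, IDH3B, IDH3G and PYGB were not called (adjusted p = 0.359, 0.741 and 0.617). None of the 8 tested other pentose phosphate genes, the 11 tested other targets of HIF-1, the hypoxia factor that activates many glycolytic genes, or the 8 tested regulators of glycolytic expression was called. Median RNA changes of these 7 lists lay between −0.21, for the other pentose phosphate genes, and 0.12, against 0.095 for the members. Their median footprint changes lay between −0.18 and 0.039, against −0.16 for the members and −0.082 for all genes. In the promoters, taken as the 250 bases before each RefSeq start (GRCh38), the letters ACGTG, the core of a HIF-1 site, were found on either strand for 18 of 32 matched members, LDHA among them and LDHB not, and for 29.6% of 8242 matched genes of the tables. The 7-mers GGACCTA and GACCTAA, which share 6 letters and came from an earlier scan of these footprint changes, were found on the mRNA strand of the 3′ UTR of SLC2A1, PFKFB2 and PDK1 (3 of 33, against 909 of 10095 genes). Their footprint changes were −0.094, 0.20 and −0.11.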

How the data were processed

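The authors deposited 1 abundance value per gene, group and assay (unit not stated), and a TE ratio of footprint over RNA, which matched the quotient of the columns. The authors deposited log2 changes in TE, each with its adjusted p-value, in a comparison table that the file name ties to DESeq2. The model, the read counting and the merging of replicates are not given in the sources used here. Per the file headers, a run summary holds cluster counts and, as a score, the mean quality of bases. The submitters' processing notes name hg19 (GRCh37) and Bowtie 1.1.2. Whether the replicates were separate cultures is not stated.

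Of 10522 entries, 9 symbols with 2 entries each were left out. The siRNA in the labels set the groups, and column names set the assays. The sample descriptions conflict with those columns, since they assign 1 assay to each group, RNA-seq to siCon and Ribo-seq to siIRE1a. RNA and footprint changes are log2 ratios with no pseudocount and no test. TE calls used the authors' adjusted p-value under 0.05. Standard errors were back-calculated from a two-sided normal test and a Benjamini-Hochberg adjustment, both assumed; where p was 0.5 or more, the median of 20 abundance bins was used. GC content came from 1 GENCODE release 29 transcript per gene (complete frame, best APPRIS rank, longest coding sequence), matched by symbol for 97.0% of genes and all 33 members. The GC trend was a polynomial of degree 3, tested on simulated data. Full values are given for members called in TE, for the members with the largest changes or the most extreme levels, and for isozymes; the members' other values are added for completeness. One result of the tricarboxylic acid cycle list is not reported here. Members, lists and rules were chosen with earlier results of these data known. Python 3.11.15, numpy 2.4.6, pandas 2.3.3, scipy 1.17.1 and matplotlib 3.10.9 were used.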

Additional observations from a re-analysis of the deposited data

How the results depend on the processing

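No paired analysis was possible because the tables hold 1 value per group and assay; leaving out a replicate was not run for the same reason, so 1 library could carry any RNA or footprint value. Members at least 1.2-fold higher in RNA numbered 8, which became 4 with a pseudocount of 1, 5 when a mean value of 1 or more was required, and 1 at 1.5-fold; the 2 lower became 1 with that minimum. The 5 members at least 1.2-fold lower in footprints became 3 with a pseudocount of 1, 2 with median centring, 1 with quantile normalization and 0 at 1.5-fold, while the 0 higher became 2 with median centring and 1 with quantile normalization. The median footprint change of −0.16 became −0.061 under quantile normalization. TE calls numbered 4 lower and 2 higher, and 8 and 2 at an adjusted p under 0.1, 2 and 1 under 0.01, and 0 and 1 with either GC trend removed. The cause of these changes was not tested. The coding-sequence trend and the background of abundant genes were chosen after seeing the data. The median TE change of −0.24 became −0.11 with the transcript GC trend removed and −0.14 with the coding-sequence one. ENO1 lost its call under median centring (adjusted p = 0.0574). Baseline TE had a median of 7.57 in siCon and 6.35 in siIRE1a columns. The median RNA change of 0.095 became 0.0058 with the transcript GC trend removed. No median turned in sign under any of these settings. Depth per gene is unknown, and low values such as those of PFKFB2 and PDK1 and the RNA values of ALDOC carry the least information.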

Other observations

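GAPDH is often used as a reference gene for RNA. Its RNA value was 1.45-fold higher in siIRE1a cells (log2 0.54, which is 0.55 above the all-gene median), while its footprint change was −0.030. After the transcript GC trend was removed, the RNA change of GAPDH was 0.31, where the standard deviation over all genes was 0.289. Set against GAPDH, 31 of the 32 other members would have a lower RNA change, ALDOC being the exception, and 25 of 32 a lower footprint change. The RNA change of GAPDH ranked 9976 from the lowest among 10504 genes, so most genes would also lie under it. Its footprint change lay between the all-gene median of −0.082 and the upper quartile of 0.042, so most genes lay under that too. Of 10 common reference genes chosen after the values were seen, 9 were in the tables, and 4 were at least 1.2-fold apart in RNA: GAPDH, TBP (0.28), YWHAZ (−0.29) and HPRT1 (−0.44). Of all genes 20.7% were that much higher and 26.0% that much lower in RNA, so the count is near the background. None of the 9 was at least 1.2-fold apart in footprints, where 6.32% of all genes were higher and 14.0% lower. ACTB was at 0.11 in RNA and PPIA at 0.095.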
